A study of Homo sapiens with 15 samples.

Results

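Translation initiation factors and the 4E binding proteins, the genes that load the ribosome onto messenger RNA and the genes that hold the cap-binding factor back, are described here in HepG2, an established line from a human hepatocellular carcinoma. The members were 47 listed gene symbols looked up by name in the gene tables, and all 47 were found among the 57773 genes listed. All 47 also passed the filter on low counts that left 12567 genes for testing, and the lowest count of any member in any library was 57 reads (EIF5A2). The cells had been kept for at most 25 passages and were exposed for 72 h to tris(2-chloroethyl) phosphate (TCEP) at 25 or 250 µM, to TCIPP, the tris(2-chloroisopropyl) analogue, at 2.5 or 25 µM, or to 0.1% dimethyl sulfoxide (DMSO) alone as the control. The compounds are flame retardants of the chlorinated organophosphate kind, and they differ in the chloroalkyl arms, each of which has an extra methyl group in TCIPP. There were 3 libraries in each of the 5 groups, and the triplicates were seeded, treated and extracted separately, per the labels' protocols. Polyadenylated RNA was read as paired ends of 50 bp.

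Initiation begins when eIF2, carrying the initiator methionyl tRNA and GTP, joins the small ribosomal subunit together with eIF1, eIF1A, eIF3 and eIF5, while eIF4F (the cap-binding eIF4E, the scaffold eIF4G and the helicase eIF4A) recruits the messenger RNA. Spent eIF2 is recharged by the exchange factor eIF2B, which is blocked when stress kinases phosphorylate the alpha subunit of eIF2. The 4E binding proteins compete with eIF4G for eIF4E unless the growth-sensing kinase mTORC1 phosphorylates them, and the messenger RNAs of ribosomal proteins and of several initiation factors begin with an oligopyrimidine tract through which mTORC1 controls their translation.

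The start of the RefSeq transcript was read for the 39 members with an entry in the promoter table used here (GRCh38.p14), and 9 of them (23.1%) began with a C followed by at least 4 further C or T letters, here called a start tract. The same start was found in 678 of 9001 tested genes with an entry (7.53%) and in 4.07% of all 35116 windows in the table. The 9 starts are shown because the members that carry them are compared with the others further on. Each line gives 15 bases before and 15 bases from the annotated start, 5′ to 3′ on the gene's strand, and the capitals mark the tract.
EIF2A (chr3:150546772-150546801, plus strand): tcacccgagcggtttCTCTTTCCgggacaa
EIF2D (chr1:206612451-206612480, minus strand): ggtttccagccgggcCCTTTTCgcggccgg
EIF2S3 (chrX:24054941-24054970, plus strand): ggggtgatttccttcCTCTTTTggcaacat
EIF3D (chr22:36529152-36529181, minus strand): gcgcgcgcatgtttcCTCTTTTCCTggttt
EIF3F (chr11:7987322-7987351, plus strand): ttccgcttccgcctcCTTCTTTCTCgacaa
EIF3K (chr19:38619173-38619202, plus strand): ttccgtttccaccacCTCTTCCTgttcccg
EIF3M (chr11:32583816-32583845, plus strand): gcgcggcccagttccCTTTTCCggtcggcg
EIF4A2 (chr3:186783562-186783591, plus strand): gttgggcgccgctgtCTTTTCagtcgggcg
EIF4B (chr12:53006441-53006470, plus strand): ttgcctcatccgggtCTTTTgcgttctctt
The tract was longest in EIF3D and EIF3F, at 10 letters, and shortest in EIF4B, at 5. EIF2AK1, EIF2S2, EIF3A, EIF3E, EIF3G, EIF3H, EIF3L and EIF4EBP1 had no entry.

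The windows from 250 bases before to 50 bases after the start were also searched on both strands for TGATGNAA, the composite site of C/EBP and ATF factors, for TGACGTCA, the cyclic AMP response element, and for TGACG, which lies within the latter. TGATGNAA was found in 0 of the 39 members and in 2.77% of tested genes, and TGACGTCA in 0 of 39 and in 3.84%. TGACG was found in 18 of 39 members (46.2%) and in 40.6% of tested genes. EIF1 and EIF5, the members with the smallest p-values against DMSO at 250 µM TCEP, both held TGACG upstream of the start, so a stretch of 100 bases is shown for each, with the matches in capitals.
EIF1, 100 to 1 bases before the start (chr17:41688785-41688884, plus strand): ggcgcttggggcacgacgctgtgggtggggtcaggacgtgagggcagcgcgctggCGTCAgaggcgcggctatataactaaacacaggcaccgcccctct
EIF5, 140 to 41 bases before the start (chr14:103334097-103334196, plus strand): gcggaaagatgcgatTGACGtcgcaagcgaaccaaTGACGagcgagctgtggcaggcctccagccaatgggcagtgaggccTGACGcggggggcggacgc
Within the stretch shown, EIF1 had 1 match, on the minus strand, beginning 45 bases before the start, and EIF5 had 3, beginning 125, 105 and 59 bases before it. Matches in the rest of the window are not listed. These matches describe the letters in the window and are not evidence of binding.

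Depth lay between 5.35 and 26.8 M exon reads (M, megareads) in a library, and the median library had 8.89 M. All 9 hepatocyte markers looked up were above 1 CPM (counts per megaread of exon reads) on average and summed to 43117 to 54554 CPM per library, while the immune markers summed to 23.5 to 50.5 CPM, the stellate and fibroblast markers to 12.7 to 34.2 CPM and the 2 endothelial markers matched to 0.998 to 2.65 CPM. Reads in introns made up 8.90 ± 0.211% of gene reads with DMSO, 8.23 ± 0.306% with 25 µM TCEP and 8.10 ± 0.490% with 2.5 µM TCIPP (SD, n = 3), against 8.50 ± 0.228% and 8.998 ± 0.496% at the higher concentrations. Mitochondrial genes took 6.997 ± 0.709% of exon reads with DMSO, 6.15 ± 0.341% and 6.04 ± 0.344% at the lower TCEP and TCIPP concentrations, and 6.602 ± 0.163% and 7.03 ± 0.293% at the higher ones. Their part in the differences at the lower concentrations given below was not tested.

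Levels per exon length (RPKM, reads per kilobase of exon per megaread, as deposited) spread widely in the DMSO libraries. The helicase EIF4A1 was highest, at 162 ± 7.92 RPKM (SD, n = 3), followed by its cofactor EIF4B at 158 ± 5.05. EIF5A, the hypusinated factor that also assists elongation, stood at 110 ± 8.33 RPKM, the eIF2 beta subunit EIF2S2 at 106 ± 14.4 and the start codon selection factor EIF1 at 101 ± 6.52. Many reads of these leading genes were not unique to them: only 1.13% of exon reads were unique for EIF4A1, 29.5% for EIF4B, 43.9% for EIF5A, 49.2% for EIF2S2 and 39.5% for EIF1. Where else these reads mapped was not examined.

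The cap-binding protein EIF4E itself was among the lowest, at 4.68 ± 0.209 RPKM, with 59.9% of reads unique, and only EIF5A2, the second eIF5A gene, was lower at 1.55 ± 0.186. Of the 4E binding proteins, EIF4EBP1 stood at 53.3 ± 6.95 RPKM and EIF4EBP2 at 16.7 ± 0.777. RPKM divides by the annotated exon length, which is 14067 bases for EIF4E and 1073 for EIF4EBP1. In CPM, without that division, EIF4E stood at 72.3 ± 3.37 and EIF4EBP1 at 62.8 ± 8.18 with DMSO. The gap between these genes in RPKM thus rests on the annotated lengths. The stress kinases of eIF2 differed in level, with the haem-regulated EIF2AK1 at 43.4 ± 0.702 RPKM, the amino acid-sensing EIF2AK4 at 8.86 ± 0.318 and the double-stranded RNA-sensing EIF2AK2 at 5.05 ± 0.229. By role, the median was 55.8 RPKM over the 10 members of eIF4F and its helicases, 36.2 over the 13 subunits of eIF3, 25.8 over the 11 members of the start codon and ternary complex group and 8.92 over the 5 subunits of eIF2B. The 3 libraries of a gene overlapped those of the next gene in the order for 35 of 46 neighbouring pairs, so the exact order is not resolved for most.

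**Figure D1:**
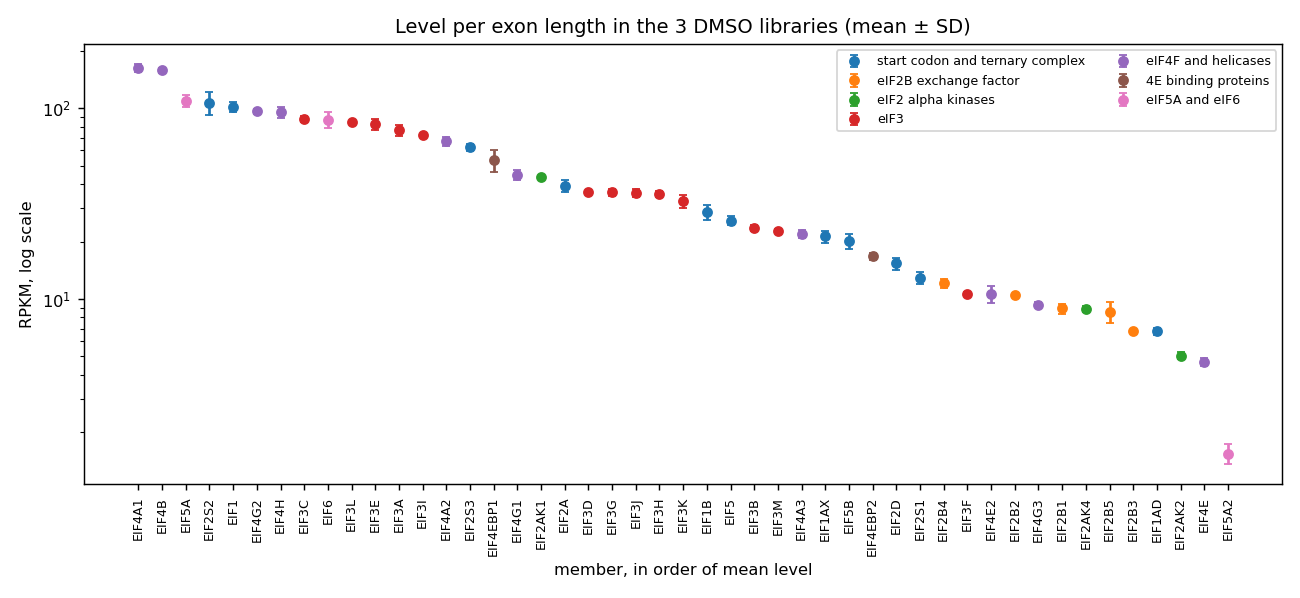
RPKM of the 47 members in the 3 DMSO libraries on a log axis, in order of the mean, with points for the mean, bars for the SD and colours for the role. The means run from 162 (EIF4A1) to 1.55 (EIF5A2), and the eIF2B subunits lie together between 6.80 and 12.1.

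Together the members took 1.12 ± 0.0261% of exon reads with DMSO, 1.19 ± 0.0218% with 25 µM TCEP, 1.197 ± 0.0357% with 250 µM TCEP, 1.16 ± 0.0255% with 2.5 µM TCIPP and 1.16 ± 0.0507% with 25 µM TCIPP (SD, n = 3). Most members varied little: the highest of the 15 libraries exceeded the lowest by a median of 1.31 times, from 1.10 times for EIF2AK1 to 2.13 times for EIF5B, the factor that joins the ribosomal subunits. EIF5B was lowest in the first library with 25 µM TCIPP, at 93.4 CPM, against 153 and 189 CPM in the others of that group and 183, 155 and 182 CPM with DMSO. CPM is a share of each library, so fewer cells of one kind and less RNA per cell cannot be told apart.

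Each exposure was compared with the same 3 DMSO libraries, so the 4 comparisons are not independent of each other. A gene was called at a Benjamini-Hochberg adjusted p under 0.05 over all tested genes in edgeR's quasi-likelihood test. With 250 µM TCEP 0 of 47 members were called, as were 0% of all tested genes. With 25 µM TCEP 0 members were called, again beside 0% of all genes. With 25 µM TCIPP 0 members were called beside 0.00796% of all genes, and with 2.5 µM TCIPP 0 members beside 0.0955%. DESeq2 called 1, 2, 1 and 1 members in the same order, beside 14, 138, 30 and 237 of the 12567 tested genes. With limma-voom 0, 0, 0 and 1 members were called, beside 0, 4, 1 and 104 genes. The members called were EIF1 each time and, as the other with 25 µM TCEP, EIF3E. All values against DMSO given below therefore did not pass the main test.

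At an unadjusted p under 0.05, 4 members were higher and 0 lower with 250 µM TCEP, where 2.39% of all tested genes were higher and 2.81% lower. With 25 µM TCEP 8 members were higher and 1 lower, beside 7.42% and 7.81% of all genes. With 25 µM TCIPP 4 were higher and 1 lower, beside 3.41% and 2.95%, and with 2.5 µM TCIPP 3 were higher and 1 lower, beside 7.81% and 6.06%. In counts of members whose 3 libraries all lay above all 3 DMSO libraries, 250 µM TCEP gave 10 (6.77% of all genes), 25 µM TCEP 13 (10.9%), 25 µM TCIPP 5 (4.97%) and 2.5 µM TCIPP 9 (8.58%). All 3 lay below DMSO for 1 member (4.44% of all genes), 3 (11.7%), 1 (4.23%) and 3 (8.22%) in the same order. Median log2 fold changes over the 47 members were 0.04, 0.03, 0.02 and 0.02, and those over all tested genes 0.00 in each. The 95% confidence interval of a member's log2 fold change against DMSO reached a median of 0.18 to either side.

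EIF1, which keeps the scanning ribosome from settling on a wrong start codon, gave the smallest p of the members in 3 of the 4 comparisons with DMSO (ENSG00000173812, GRCh37 chromosome 17, 39845137 to 39848920). It stood at 395, 383 and 431 CPM with DMSO. It stood at 489, 498 and 475 CPM with 25 µM TCEP and at 518, 524 and 510.5 CPM with 250 µM TCEP. With TCIPP it was at 534, 529 and 478 CPM at 2.5 µM and at 541, 563 and 483 CPM at 25 µM. All 12 treated libraries lay above all 3 DMSO libraries, which was so for 1 of the 47 members and for 0.446% of all tested genes.

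The log2 fold changes of EIF1 against DMSO were 0.28 ± 0.0753 and 0.34 ± 0.0754 (SE) with 25 and 250 µM TCEP and 0.35 ± 0.0754 and 0.39 ± 0.0756 with 2.5 and 25 µM TCIPP. The adjusted p in edgeR's quasi-likelihood test was 0.134 and 0.290 for TCEP and 0.0571 and 0.0969 for TCIPP, in the same order. The higher concentration added 0.06 for TCEP and 0.04 for TCIPP, with intervals of -0.09 to 0.22 and -0.12 to 0.19. A contrast of the mean of all treated groups with DMSO was added after these values were seen, and gave 0.34 ± 0.061 for EIF1 (adjusted p = 0.0607, edgeR). That contrast called 0 of the 47 members and 0% of all genes in edgeR, with 5 members higher and 0 lower at an unadjusted p under 0.05 beside 5.34% and 5.34% of all genes. DESeq2 called 1 member beside 47 of the 12567 genes, and limma-voom 0 beside 0. Since the contrast was chosen for the EIF1 values, its p for EIF1 is no further evidence.

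EIF5, which makes eIF2 hydrolyse its GTP once the start codon is found, had the next smallest p of that group at the higher concentrations of both compounds (ENSG00000100664, GRCh37 chromosome 14, 103799881 to 103811362). It stood at 239, 229 and 255 CPM with DMSO, at 289, 284 and 276 CPM with 250 µM TCEP and at 288, 279 and 268 CPM with 25 µM TCIPP. At the lower concentrations it stood at 283, 249.8 and 265 CPM with TCEP and at 279, 253 and 248 CPM with TCIPP. The higher concentrations did not overlap DMSO, whereas the third DMSO library lay within both lower groups. The log2 fold changes were 0.22 ± 0.0691 and 0.21 ± 0.0693 at the higher TCEP and TCIPP concentrations (adjusted p = 0.809 and 0.575, edgeR). The 3 eIF2 subunits and the other members of the group ran from -0.27 (EIF5B, 25 µM TCIPP, adjusted p = 0.861) to 0.21 (EIF2S2, 250 µM TCEP, adjusted p = 0.987), apart from EIF2A below.

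Of the exchange factor eIF2B, EIF2B4, its delta subunit, stood at 74.6, 67.2 and 70.3 CPM with DMSO and at 68.5, 60.4 and 56.8 CPM with 2.5 µM TCIPP, where 1 library overlapped the control. It stood at 68.5, 65.1 and 65.6 CPM with 25 µM TCEP, 66.8, 75.9 and 65.2 CPM with 250 µM TCEP and 70.2, 62.8 and 59.8 CPM with 25 µM TCIPP. Its log2 fold change at 2.5 µM TCIPP was -0.20 ± 0.0892 (adjusted p = 0.340). The gamma subunit EIF2B3 stood at 22.8, 22.5 and 23.0 CPM with DMSO and at 25.9, 26.2 and 25.2 CPM with 25 µM TCEP, without overlap. With 250 µM TCEP it stood at 25.5, 25.8 and 22.5 CPM and with 2.5 and 25 µM TCIPP at 20.5, 25.4 and 21.3 and at 25.3, 24.7 and 23.8 CPM. Between 1 and 3 of the 5 eIF2B genes had a positive log2 fold change in each comparison with DMSO, and the range was -0.20 to 0.18. With 2.5 µM TCIPP 1 of 5 was positive and the median was -0.19.

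Among the eIF2 kinases, EIF2AK4, which senses uncharged tRNA, was lowest with 25 µM TCIPP. It stood at 102, 102 and 108 CPM with DMSO, 101, 102 and 104 CPM with 25 µM TCEP and 101, 101 and 101 CPM with 250 µM TCEP. With TCIPP it stood at 96.3, 99.3 and 97.1 CPM at 2.5 µM and 94.6, 84.4 and 92.6 CPM at 25 µM. The libraries with 25 µM TCIPP lay below those of each other group. All 3 lay below DMSO for 4.23% of all tested genes, and the share below each other group is not given. The log2 fold change was -0.21 ± 0.061 against DMSO (adjusted p = 0.506, edgeR) and -0.18 ± 0.061 against 25 µM TCEP (adjusted p = 0.141, edgeR). The other 2 kinases had log2 fold changes against DMSO between -0.06 and 0.05.

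The eIF3 subunits, which scaffold the initiation complex, had mostly positive values: 12 of 13 with 250 µM TCEP, 11 with 25 µM TCEP, 9 with 25 µM TCIPP and 11 with 2.5 µM TCIPP, with medians of 0.09, 0.13, 0.02 and 0.08. EIF3E was the largest of them at 25 µM TCEP. It stood at 529, 519.6 and 584 CPM with DMSO, 688, 758 and 656 CPM with 25 µM TCEP and 573, 652 and 617 CPM with 250 µM TCEP. With TCIPP it stood at 573, 616 and 564 CPM at 2.5 µM and 459, 589 and 532 CPM at 25 µM. The libraries with 25 µM TCEP lay above every other library, and the other treated groups overlapped DMSO. All 3 lay above DMSO for 10.9% of all tested genes with 25 µM TCEP, and the share above every other library is not given. The log2 fold change with 25 µM TCEP was 0.37 ± 0.0914 (adjusted p = 0.116, edgeR).

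EIF3D, a subunit that can itself bind the cap of some messenger RNAs, stood at 163, 161 and 163 CPM with DMSO. It stood at 191, 198 and 175 CPM with 25 µM TCEP, 180.0, 195 and 177 CPM with 250 µM TCEP, 199, 201 and 181 CPM with 2.5 µM TCIPP and 179.6, 194 and 156 CPM with 25 µM TCIPP. Of the 12 treated libraries 11 lay above all 3 DMSO libraries, all but the third with 25 µM TCIPP. The share of all tested genes with 11 of 12 above DMSO is not given, here or for EIF3C below. The log2 fold change of EIF3D was largest with 2.5 µM TCIPP, at 0.26 ± 0.0846 (adjusted p = 0.164, edgeR). EIF3F stood at 107, 112 and 111 CPM with DMSO and at 132, 125 and 118 and 128, 124 and 116 CPM with 2.5 and 25 µM TCIPP, without overlap. With 25 and 250 µM TCEP it stood at 114, 115 and 107 and at 124, 117 and 116 CPM. EIF3J, a loosely bound subunit, stood at 122, 124 and 132 CPM with DMSO, 138, 134 and 139 with 25 µM TCEP and 135, 148 and 142 with 250 µM TCEP, also without overlap. It stood at 123, 116 and 122 CPM with 2.5 µM TCIPP and 113, 131 and 141 CPM with 25 µM TCIPP, overlapping DMSO in both. EIF3C has a near-identical copy, EIF3CL, and only 2.16% of its exon reads were unique. EIF3C stood at 647, 696 and 668 CPM with DMSO, 775, 837 and 745 CPM with 25 µM TCEP and 734, 899.9 and 763 CPM with 250 µM TCEP. It stood at 777, 848 and 728 CPM with 2.5 µM TCIPP and 803, 912 and 589 CPM with 25 µM TCIPP, where the third library lay below DMSO while the other 11 treated libraries lay above it. Over all treated groups its log2 fold change was 0.23 ± 0.101 (adjusted p = 0.439). With the reads of both genes summed, the log2 fold change at 250 µM TCEP was 0.17 (adjusted p = 0.987), against 0.24 for EIF3C alone, and it was 0.17, 0.13 and 0.16 with 25 µM TCEP, 25 µM TCIPP and 2.5 µM TCIPP.

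In eIF4F and its helicases, EIF4A2, a close paralogue of the helicase EIF4A1, stood at 453, 427 and 475 CPM with DMSO and 521, 622 and 528 CPM with 25 µM TCEP, without overlap (0.31 ± 0.103, adjusted p = 0.182). It stood at 451, 514 and 454 CPM with 250 µM TCEP, 459.8, 567 and 474 CPM with 2.5 µM TCIPP and 416, 496 and 418 CPM with 25 µM TCIPP, which overlapped DMSO. EIF4A3, the helicase of the exon junction complex, was lower with 25 µM TCEP, at -0.18 ± 0.0778 (adjusted p = 0.270). The scaffolds EIF4G1 and EIF4G2 and the cap-binding EIF4E and EIF4E2 had log2 fold changes against DMSO between -0.23 and 0.08. EIF2A, an alternative carrier of the initiator tRNA that is not part of eIF2, was likewise highest with 25 µM TCEP. It stood at 166, 174 and 190.2 CPM with DMSO, 211, 216 and 217 CPM with 25 µM TCEP and 164, 185 and 191 CPM with 250 µM TCEP. It stood at 178, 183 and 191 CPM with 2.5 µM TCIPP and 141, 176 and 185 CPM with 25 µM TCIPP, so of the 4 exposures only 25 µM TCEP lay clear of DMSO (0.29 ± 0.0866, adjusted p = 0.162). EIF5A, EIF5A2 and the subunit anti-association factor EIF6 had log2 fold changes against DMSO between -0.16 and 0.05.

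**Figure D2:**
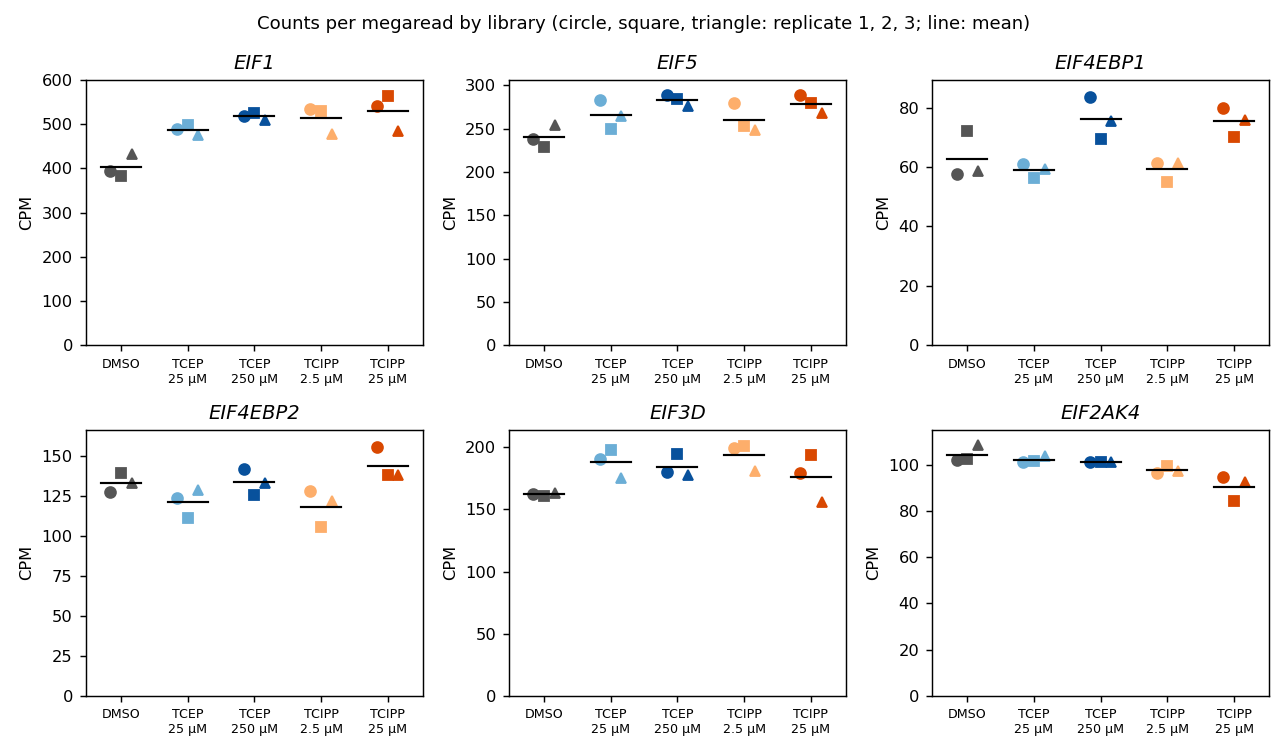
CPM of EIF1, EIF5, EIF4EBP1, EIF4EBP2, EIF3D and EIF2AK4 in each library, from 0, with circles, squares and triangles for replicates 1, 2 and 3 and a line for the group mean. EIF1 is at 475 CPM or above in each of the 12 treated libraries and at 431 CPM or below with DMSO, and EIF4EBP1 is at 69.4 CPM or above in the 6 libraries at the higher concentrations and at 61.4 CPM or below in the 6 at the lower ones.

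Of the 4E binding proteins, EIF4EBP1 was higher at the higher concentration of both compounds. EIF4EBP1, whose protein releases eIF4E when phosphorylated, stood at 61.0, 56.5 and 59.2 CPM with 25 µM TCEP and at 83.7, 69.4 and 75.5 CPM with 250 µM TCEP. With TCIPP it stood at 61.4, 54.9 and 61.4 CPM at 2.5 µM and at 80.0, 70.2 and 75.8 CPM at 25 µM. With DMSO it stood at 57.5, 72.2 and 58.6 CPM. All 6 libraries at the higher concentrations lay above all 6 at the lower ones, which was so for 1 of the 47 members and for 0.875% of all tested genes, while the second DMSO library overlapped the higher group. Each EIF4EBP1 read was unique to the gene.

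Averaged over both compounds, EIF4EBP1 rose from the lower to the higher concentration by 0.34 ± 0.0633 on the log2 scale (adjusted p = 0.0201, edgeR), and it was the 1 member called, beside 1.09% of all tested genes (137 genes, and 2 to 335 with single libraries left out). With the replicate number as a block its adjusted p was 0.00135, and 5 members were called beside 8.78% of all genes. The call was lost without the first (adjusted p = 0.0852) or the third (0.0576) library with 250 µM TCEP, the second with 25 µM TCEP (0.0755), the first with 25 µM TCIPP (0.0636) or the second with 2.5 µM TCIPP (0.0684), where the log2 fold change stayed between 0.31 and 0.35. By compound, the step was 0.35 ± 0.0887 for TCEP (adjusted p = 0.521, and 0.0423 with the block) and 0.34 ± 0.0902 for TCIPP (adjusted p = 0.216, and 0.0343 with the block). The difference between the 2 steps was -0.01, with an interval of -0.28 to 0.26. Against DMSO, EIF4EBP1 was at 0.27 with both higher concentrations (adjusted p = 0.826 and 0.575).

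EIF4EBP2, which acts like EIF4EBP1, stood at 127, 139 and 133 CPM with DMSO, 124, 111 and 129 CPM with 25 µM TCEP and 142, 126 and 133 CPM with 250 µM TCEP. With TCIPP it stood at 128, 105 and 121 CPM at 2.5 µM and 156, 138 and 138 CPM at 25 µM. The TCIPP groups did not overlap, whereas the TCEP groups did. The share of all tested genes without overlap is not given for the step between the TCIPP groups. The TCIPP step was 0.28 ± 0.0801 (adjusted p = 0.241, and 0.0276 with the block) and the TCEP step 0.12 ± 0.0794 (adjusted p = 0.777). The difference of the steps was 0.16, with an interval of -0.08 to 0.39. Over both compounds the step was 0.20 ± 0.0564 (adjusted p = 0.0959, and 0.0134 with the block).

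With the TCEP step from 25 to 250 µM, 0 members were called in edgeR's main test, as were 0% of all genes, and at an unadjusted p under 0.05 1 member was higher and 3 lower, beside 3.33% and 3.83% of all genes. The lower members were EIF2A (-0.28 ± 0.0867), EIF4A2 (-0.26 ± 0.103) and EIF3E (-0.21 ± 0.0913), whose groups did not overlap. For this step too, the share of all tested genes without overlap is not given. With the block 2 members were called, EIF4EBP1 and EIF2A (adjusted p = 0.0291), beside 1.47% of all genes. With the TCIPP step from 2.5 to 25 µM, 0 members were called beside 0% of all genes, and 3 were higher and 1 lower at an unadjusted p under 0.05, beside 5.03% and 5.78%. With the block EIF4EBP1 and EIF4EBP2 were the 2 members called, beside 3.85% of all genes. In both steps DESeq2 called 0 members, beside 14 of the 12567 genes for TCEP and 62 for TCIPP. With limma-voom 0 members and 0 genes were called in both.

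EIF2D, which like EIF2A can bring a tRNA to the ribosome without eIF2, was the lower member of the TCIPP step, at 55.5, 47.1 and 53.0 CPM with 2.5 µM and 45.8, 41.5 and 47.02 CPM with 25 µM. It stood at 45.9, 52.6 and 47.2 CPM with DMSO and at 50.8, 49.2 and 50.5 and 50.9, 49.5 and 50.5 CPM with 25 and 250 µM TCEP. EIF4G3, a scaffold paralogous to EIF4G1, was higher in that step, at 84.2, 69.5 and 78.2 against 84.3, 90.8 and 90.2 CPM. It stood at 88.8, 84.8 and 83.3 CPM with DMSO, 75.8, 81.0 and 83.1 CPM with 25 µM TCEP and 86.5, 83.3 and 87.6 CPM with 250 µM TCEP. The step was -0.22 ± 0.075 for EIF2D (adjusted p = 0.306) and 0.18 ± 0.0718 for EIF4G3 (adjusted p = 0.364), and neither was called with the block.

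In the test of whether the step differed between TCIPP and TCEP, 0 members were called (0% of all genes) and 0 had an unadjusted p under 0.05, beside 1.66% of all genes. DESeq2 and limma-voom also called 0. The smallest p was that of EIF2D, at -0.20 with an interval of -0.42 to 0.02, and the next that of EIF2B3, at 0.24 with an interval of -0.04 to 0.52. The log2 fold changes of both steps had the same sign for 37 of 47 members (78.7%) and 67.4% of all tested genes. The 2 steps share no library, but same-numbered libraries of different treated groups varied together.

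**Figure D3:**
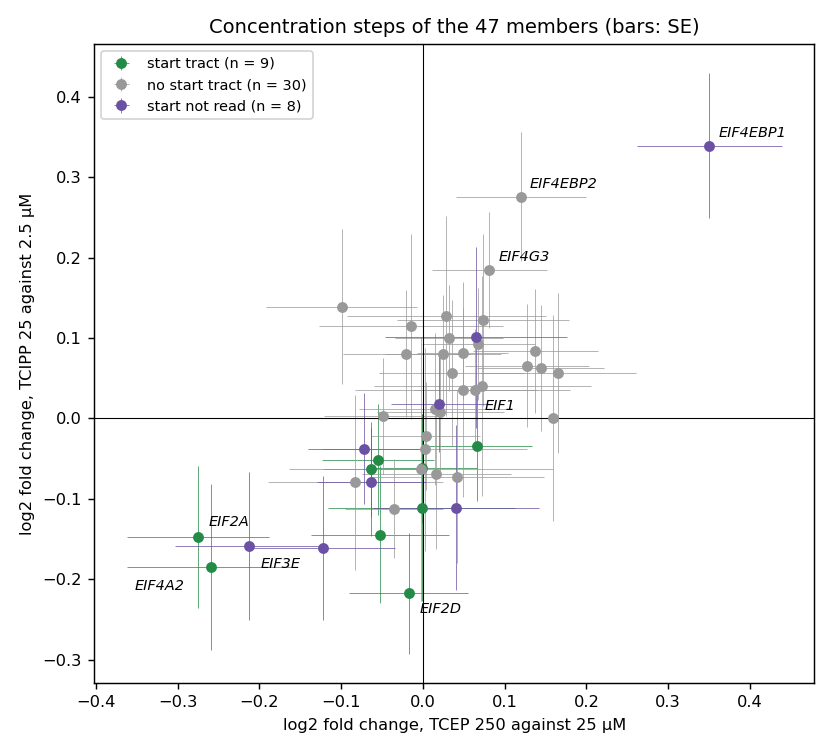
Log2 fold change of each member from 25 to 250 µM TCEP (x axis) and from 2.5 to 25 µM TCIPP (y axis), with bars for the SE and colours for the transcript start. EIF4EBP1 lies apart at 0.35 and 0.34, and EIF2A, EIF4A2 and EIF3E lie at the lower left.

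The compounds were compared at the concentration they share, 25 µM, which is the low level for TCEP and the high level for TCIPP, so 1 pair of groups was compared. Among the members 0 were called in the main test, beside 0.0398% of all genes. With the block 7 were called beside 8.75% of all genes. DESeq2 called 4 members beside 334 of the 12567 genes, and limma-voom 0 beside 4. At an unadjusted p under 0.05, 4 members were higher with TCIPP and 7 lower, beside 9.19% and 8.94% of all genes. The log2 fold change of TCIPP against TCEP was -0.42 ± 0.0917 for EIF3E (adjusted p = 0.0756, and 0.0023 with the block), -0.37 ± 0.0874 for EIF2A (0.0771, and 0.00168 with the block) and -0.34 ± 0.103 for EIF4A2 (0.116, and 0.0108 with the block). EIF4EBP1 was higher with TCIPP, at 0.35 ± 0.0897 (adjusted p = 0.0865, and 0.0174 with the block), and EIF4EBP2 at 0.24 ± 0.0797 (0.140, and 0.0331 with the block). For these 5 genes the groups did not overlap. The share of all tested genes without overlap is not given for this comparison. EIF1 did not pass, at 0.11 with an interval of -0.05 to 0.27.

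**Figure D4:**
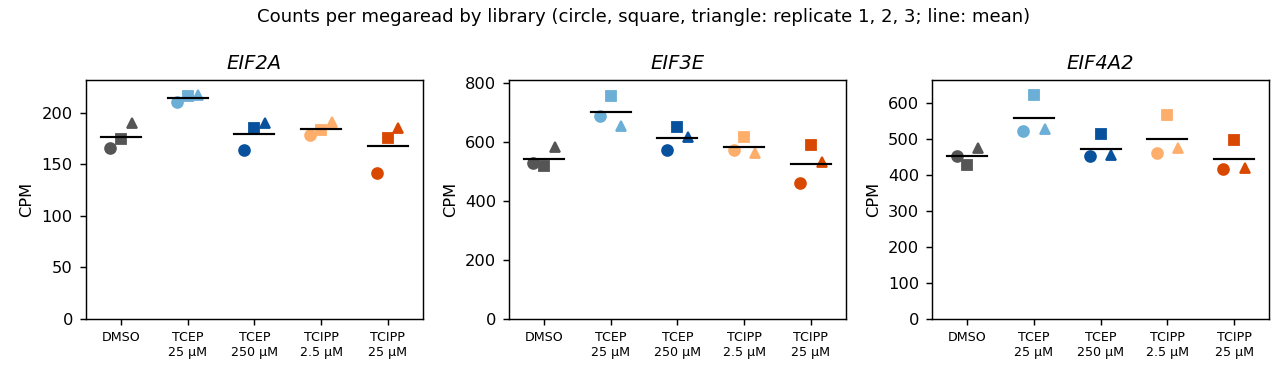
CPM of EIF2A, EIF3E and EIF4A2 in each library, from 0, with circles, squares and triangles for replicates 1, 2 and 3 and a line for the group mean. The libraries with 25 µM TCEP lie above those with DMSO and with 25 µM TCIPP in all 3 panels, and above those with 250 µM TCEP.

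Over both compounds, 3 members were higher and 5 lower at an unadjusted p under 0.05 at the higher concentrations, beside 7.72% and 8.61% of all genes. The lower ones were EIF2A at -0.21 ± 0.0617 (adjusted p = 0.102, and 0.00425 with the block), EIF4A2 at -0.22 ± 0.0729 (0.141, and 0.0146 with the block), EIF3E at -0.19 ± 0.0647 (0.165), EIF3H and EIF2D. EIF4G3 was the third member with a higher value, at 0.13 ± 0.0504 (adjusted p = 0.199).

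The members with a start tract stood higher at the lower concentrations than those without. With 25 µM TCEP all 9 had a positive log2 fold change against DMSO, with a median of 0.12, and 15 of the 30 without a tract, with a median of 0.00. With 2.5 µM TCIPP it was 9 of 9 with a median of 0.12, and 11 of 30 with a median of -0.05. These 2 groups also had the lowest intronic shares (8.23% and 8.10%) and mitochondrial shares (6.15% and 6.04%), whose part in the result was not tested. With 250 µM TCEP it was 9 of 9 with a median of 0.05, and 16 of 30 with a median of 0.00, and with 25 µM TCIPP 5 of 9 with a median of 0.01, and 18 of 30 with a median of 0.02. In the TCEP step 1 of the 9 and 23 of the 30 were positive, with medians of -0.05 and 0.03, and in the TCIPP step 0 of 9 and 23 of 30, with medians of -0.11 and 0.06.

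Positive values were held by 60.0% of all tested genes with a start tract at 25 µM TCEP and by 64.3% at 2.5 µM TCIPP. Of tested genes without a tract, 49.4% and 47.8% were positive. With 250 µM TCEP 62.1% of tested genes with a tract were positive and 50.1% of those without. With 25 µM TCIPP it was 57.8% and 48.0%. Over all tested genes, the larger positive share with a tract was thus not particular to the lower concentrations. Over all tested genes with a start tract, the medians were 0.04 with 25 µM TCEP and 0.06 with 2.5 µM TCIPP, against 0.00 and -0.01 for those without. These genes include the members and genes with ribosomal protein symbols (RPL or RPS followed by a digit or P). Without both, the medians were 0.03 and 0.05 over 621 genes, with 56.5% and 61.2% positive. With 250 µM TCEP and 25 µM TCIPP these 621 genes had medians of 0.02 and 0.03, with 59.4% and 58.9% positive. With a tract and a symbol of RPL or RPS followed by a digit there were 45 genes. Their medians were 0.20 with 25 µM TCEP and 0.13 with 2.5 µM TCIPP, with 44 of 45 positive in each. With 250 µM TCEP the median was 0.08 with 41 of 45 positive, and with 25 µM TCIPP -0.01 with 19 of 45. In the TCEP and TCIPP steps the medians were -0.11 and -0.15. The match was by symbol alone, so S6 kinase genes (RPS6K) were not kept out. The tract was not used to choose the members, but it was looked at with their values known, and these counts are a description with no test.

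Averaged over the 9 members on a log2 scale and set against the DMSO mean, single libraries stood at 0.13, 0.21 and 0.09 with 25 µM TCEP, 0.13, 0.17 and 0.07 with 2.5 µM TCIPP, 0.02, 0.13 and 0.06 with 250 µM TCEP and -0.01, 0.09 and -0.06 with 25 µM TCIPP. The DMSO libraries themselves stood at 0.00, -0.02 and 0.02. The 6 libraries at the lower concentrations lay above the DMSO libraries, and the second library was the highest of each treated group. The 30 members without a tract ranged from -0.05 to 0.07 over the treated libraries and from -0.04 to 0.02 over DMSO.

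**Figure D5:**
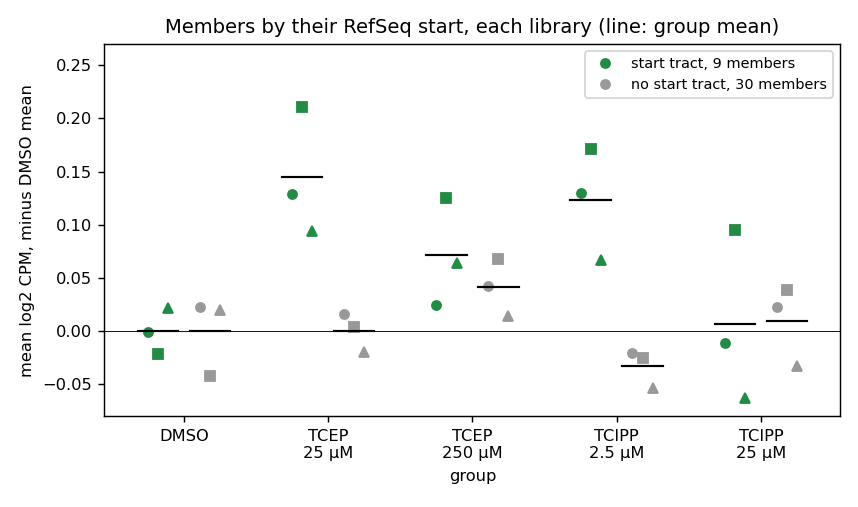
Mean log2 CPM of the 9 members with a start tract and of the 30 without, in each library, minus the mean of the DMSO libraries, with circles, squares and triangles for replicates 1, 2 and 3 and lines for group means. The group means with a tract are 0.14 with 25 µM TCEP and 0.12 with 2.5 µM TCIPP, and 0.01 with 25 µM TCIPP.

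Of the genes around these factors, 0 in 6 lists passed edgeR's adjusted p of 0.05 against DMSO in any exposure. The share of all tested genes higher at an unadjusted p under 0.05 was 2.39% with 250 µM TCEP and 7.42% with 25 µM TCEP. It was 3.41% with 25 µM TCIPP and 7.81% with 2.5 µM TCIPP. In the same order 2.81%, 7.81%, 2.95% and 6.06% were lower. The counts in each list below stand beside these shares. In the list of mTORC1 and its regulators 28 genes were tested, and at an unadjusted p under 0.05 2, 3, 2 and 1 were higher and 1 in each was lower with 250 and 25 µM TCEP and 25 and 2.5 µM TCIPP. Among them DDIT4, a stress-induced inhibitor of mTORC1, had a log2 fold change of 0.38 ± 0.0872 with 25 µM TCIPP (adjusted p = 0.186) and 0.33 ± 0.0868 with 250 µM TCEP (adjusted p = 0.542). The medians of the list were -0.01, -0.05, -0.04 and -0.01. In the higher against the lower concentrations 1 of the 28 was called, beside 1.09% of all tested genes. It was SESN2, an inhibitor of mTORC1 that senses leucine, and it was higher (0.41 ± 0.0937, adjusted p = 0.0451, edgeR).

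The 17 genes of the eIF2 phosphatases and the stress response gave 2, 2, 4 and 1 higher and 1, 2, 0 and 2 lower at that unadjusted level, in the same order of exposures, with medians of 0.13, 0.02, 0.07 and 0.02. At the higher against the lower concentrations 1 of the 17 was called, beside 1.09% of all tested genes. It was TRIB3, a pseudokinase that represses the stress response, and it was higher (0.32 ± 0.0561, adjusted p = 0.0164, edgeR). ATF4, the transcription factor whose translation rises when eIF2 is phosphorylated, stood at 0.22 ± 0.0577 in that comparison (adjusted p = 0.0639). GCN1L1, the partner through which EIF2AK4 senses stalled ribosomes, was at -0.27 ± 0.0665 with 25 µM TCEP (adjusted p = 0.116).

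The 22 cap, poly-A and eIF4F partners gave 1, 2, 1 and 3 higher and 0, 2, 0 and 2 lower. Of these MKNK2, a kinase of eIF4E, was at 0.42 ± 0.11 with 2.5 µM TCIPP (adjusted p = 0.103) and RBM3, a cold-induced RNA-binding protein, at 0.28 ± 0.0832 with 25 µM TCEP (adjusted p = 0.157). The 13 elongation and termination factors tested gave 0, 1, 0 and 1 higher and 0, 4, 1 and 3 lower. Of these EEF1E1, a scaffold of the aminoacyl tRNA synthetases, was at -0.36 ± 0.088 with 2.5 µM TCIPP (adjusted p = 0.0802). GSPT1, the termination factor eRF3a, was at -0.34 ± 0.0895 with 25 µM TCEP (adjusted p = 0.134) and rose at the higher against the lower concentrations (0.29 ± 0.0635, adjusted p = 0.0412, edgeR). It was the 1 of the 13 called between concentrations, beside 1.09% of all tested genes. The 9 eIF5A hypusination genes tested gave 0, 1, 0 and 1 higher and 0, 1, 0 and 0 lower. Of these AZIN1 was at 0.23 ± 0.0785 with 2.5 µM TCIPP (adjusted p = 0.188) and OAZ1 at -0.20 ± 0.0707 with 25 µM TCEP (adjusted p = 0.205), both regulators of ornithine decarboxylase.

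Of 8 further initiation factor genes outside the members 4 passed the low-count filter, and 0 of them had an unadjusted p under 0.05 against DMSO. EIF2AK3, the eIF2 kinase of the endoplasmic reticulum, had log2 fold changes of 0.09, -0.05, -0.02 and -0.02 with 250 and 25 µM TCEP and 25 and 2.5 µM TCIPP. EIF4ENIF1, which carries eIF4E into the nucleus, was at 0.21 ± 0.132 with 250 µM TCEP (adjusted p = 0.987) and EIF2S3L at 0.64 ± 0.343 with 2.5 µM TCIPP (adjusted p = 0.429). EIF4E3 and EIF4EBP3 were under the filter, with 105 and 29 reads over all 15 libraries.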

How the data were processed

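The authors' deposited tables hold, per library, total exon, unique exon, total gene and intron read counts per gene, RPKM and a quantile-normalized signal, each library separate, made by aligning, mapping and annotating the reads in CLC Genomics Workbench against human hg19 (GRCh37), per the labels' protocols and the submitters' processing notes. Neither the software version nor the strand setting is given in the sources used here, and reads of overlapping antisense genes can thus not be told apart. The deposited signal was not used. The deposited RPKM were proportional, within each library, to total exon reads per exon length for 100% of the 250284 values above 0, within a relative 0.0001. Gene starts lay 1 base below the annotation for 86.4% of genes compared and were moved by 1 base, and 27 names that read as dates or occurred more than once were replaced by the symbol of their gene ID where the reference table held one.

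Total exon counts of all 15 libraries (5.35 to 26.8 M exon reads) were fitted in 1 model with edgeR 4.0.16 (R 4.3.3; TMM scaling, filterByExpr, quasi-likelihood test, Benjamini-Hochberg over 12567 genes, called under 0.05). The SE is the log2 fold change over the square root of F, and intervals are 95%. CPM are exon counts per megaread of the library's exon reads. Alternatives were DESeq2 1.42.0, limma-voom (limma 3.58.1), library totals in place of TMM, no low-count filter, unique exon or total gene counts, the compared groups alone, the replicate number as a block, and leaving out each library. Scripts were tested on simulated counts.

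Same-numbered libraries of treated groups deviated together in 18 of 18 pairs, with correlations of deviations of 0.130 to 0.337. The 36 pairs of unlike number gave -0.258 to 0.0363. With a threshold of 0.1, the numbers were taken to pair the treated groups. DMSO with treated groups gave 0.0164 to 0.158 over 12 same-numbered pairs and -0.1915 to 0.0772 over 24 of unlike number. The same-numbered values were all above 0 and lay on both sides of 0.1, and DMSO was not taken as paired. The fit with the block nonetheless held all 15 libraries and gave DMSO the same block numbers, so the block values for the steps rest on that too. The labels give the replicate numbers but name no shared batch, so the pairing rests on these correlations.

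Members and gene lists were chosen with earlier results of these data known. Values in every library are given for both 4E binding proteins and, per comparison, for the 4 members with the smallest p. From each list outside the members, the 2 genes with the smallest p against DMSO are named, besides EIF2AK3, EIF4E3, EIF4EBP3, ATF4 and DDIT4, and any gene called. Transcript starts come from RefSeq (GRCh38.p14) by symbol for 39 of 47 members. No coordinates were converted between builds.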

Additional observations from a re-analysis of the deposited data

How the results depend on the processing

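With library totals EIF4EBP2 stood at 0.0065 with 250 µM TCEP against DMSO, against -0.01 with TMM scaling, and it ranged from -0.049 to 0.030 with single libraries left out. Leaving out single libraries, EIF4EBP1 ranged from -0.133 to 0.018 with 25 µM TCEP and from -0.123 to 0.028 with 2.5 µM TCIPP, and was above 0 without the second DMSO library only. The cause was not tested. DESeq2 called 1, 2, 1 and 1 members with 250 and 25 µM TCEP and 25 and 2.5 µM TCIPP against DMSO, 4 between the compounds at 25 µM, 3 between higher and lower concentrations and 1 over all treated groups. Without the low-count filter these were 1, 4, 1 and 1, then 5, 4 and 1, and 1 in the TCEP step and 1 in the TCIPP step. Library totals, limma-voom and unique reads each called 1 member with 2.5 µM TCIPP, and unique reads 1 over all treated groups. Of all genes, DESeq2 called 47 over all treated groups, the fit without the filter 354 and unique reads 13. The other counts over all genes are given further below.

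With the replicate block 1, 5, 1 and 3 members were called against DMSO, 2 and 2 in the TCEP and TCIPP steps, 7 between the compounds at 25 µM, 5 between higher and lower concentrations and 3 over all treated groups. Of all genes, the block called 568 over all treated groups, and its other counts are given below. Against DMSO the replicate numbers are not taken to pair the libraries, although the block fit gave DMSO the same block numbers.

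Leaving out single libraries, 0 to 2 members were called between the compounds at 25 µM (2 without the second library with 25 µM TCIPP) and 0 to 1 between higher and lower concentrations. The medians over members ranged from -0.074 to 0.041 between the compounds and from -0.043 to 0.036 for the difference of the steps. Of the counts and medians over members, 282 values under alternatives kept within 1.5 times or within the spread between replicates and 38 did not; of single genes 738 kept direction and side of the threshold, 58 passed it newly, 5 lost it and 5 changed sign.

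Over all genes edgeR as described called 0, 0, 1 and 12 against DMSO, 0 in each step, 5 between the compounds and 137 between concentrations. DESeq2 called 14, 138, 30 and 237, then 14, 62, 334 and 345, and the replicate block 34, 1037, 47 and 941, then 185, 484, 1100 and 1103. Without the filter 50, 618, 80 and 553 were called, then 161, 345, 756 and 728. With 2.5 µM TCIPP library totals called 35, limma-voom 104, unique reads 122 and total gene reads 0, and with 25 µM TCEP the fit of those groups alone called 135. Leaving out single libraries moved these counts: without the second DMSO library they were 1, 29, 5 and 307 against DMSO, and with 2.5 µM TCIPP 117 without its first library and 0 without any 1 of the other 4. Between the compounds 208 were called without the second library with 25 µM TCIPP and 0 without any other. Between concentrations, the background of the EIF4EBP1 call, the count ran from 2 without the first library with 250 µM TCEP to 335 without the second with 25 µM TCIPP, and was 8 to 75 in 8 and 180 and 277 in 2 of the other cases. Having 3 libraries a group limits what can be seen: against DMSO the interval of a member reached a median of 0.18 to either side.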
